A study of Mus musculus with 28 samples.

Results

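The genes described here are 9 CC chemokine ligands (Ccl2, Ccl3, Ccl4, Ccl5, Ccl6, Ccl7, Ccl8, Ccl22 and Ccl24) and Ccr2, the receptor that inflammatory monocytes use to leave the blood. They were taken by symbol, 10 rows of the 32544 genes in each count table. The livers of 28 C57BL/6 mice were each sequenced whole as 1 RNA library, and the mice formed 8 groups of 4 males or 3 females. Control mice carried floxed c-Myc alleles (CT), and in the other mice c-Myc was deleted from endothelial cells by an inducible Cre (EC-Myc KO, here KO). Both genotypes received tamoxifen at 5 weeks of age and after 2 weeks were placed for 5 weeks on a control diet low in fat (CTD) or on one rich in fat and cholesterol (HFC). The labels give an age of 13 weeks at collection, while these steps add to 12. The promoter that drives Cre is not given in the sources used here. Males and females were deposited as separate tables, so sex and table cannot be told apart. Nothing in the labels describes litters or cages, and p-values measure the spread between the animals sequenced. In both sexes the CTD animals carry numbers from 298 to 320 and the HFC animals numbers from 412 to 543. What these numbers stand for is not given, so diet and number series cannot be told apart.

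CC chemokines are small secreted proteins that bind to matrix and to receptors coupled to G proteins, and they set the direction in which leukocytes move. In the liver they are made by resident macrophages (Kupffer cells), stellate cells, endothelial cells, hepatocytes under stress and recruited leukocytes. The axis of Ccl2 and Ccr2 is known for drawing Ly6C-high monocytes into livers with fat accumulation and fibrosis. Ccl3, Ccl4 and Ccl5 attract T cells, NK cells and macrophages, and Ccl3 and Ccl5 act on Ccr1.

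The ligand genes Ccl2, Ccl7, Ccl8, Ccl5, Ccl6, Ccl3 and Ccl4 lie in 2 clusters on chromosome 11 (GRCm38, GENCODE M21). Ccl2 (82035571 to 82037453), Ccl7 (82045712 to 82047525) and Ccl8 (82115185 to 82116799) share 81.23 kb with Ccl11 and Ccl12. Ccl5, Ccl6, Ccl3 and Ccl4 share 138.9 kb with Ccl9, between 83525778 and 83664683. Ccl22 lies on chromosome 8, Ccl24 on chromosome 5 and Ccr2 on chromosome 9 (124101950 to 124113557). An annotated gene on the opposite strand, Gm17268, overlaps Ccl2 and had 0 counts in every library. Whether counting used strand is not given in the sources used here, so reads of Ccl6 and of E230016K23Rik, which overlaps it on the other strand, cannot be told apart, nor can those of Ccl3 and a RefSeq model of Ccl4 that reaches over it.

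The RefSeq promoter table (GRCm38.p6) held 5 of the 10 genes, as the 250 bases before the start that RefSeq gives. The windows of Ccr2 and Ccl22 run past the gene starts of the GENCODE annotation, that of Ccr2 almost wholly (GENCODE start 124101950, window 124101933 to 124102182), so the annotations differ on what lies before transcription there. Distances to the start below are to the RefSeq start. The promoters of Ccl8, Ccr2 and Ccl3 are shown because these 3 held all matches to the motifs searched and stand for the monocyte chemoattractants, their receptor and the second cluster on chromosome 11. They are written 5′ to 3′ on the gene's strand, and capitals mark motif matches.
Ccl8, chr11:82114935-82115184, plus strand: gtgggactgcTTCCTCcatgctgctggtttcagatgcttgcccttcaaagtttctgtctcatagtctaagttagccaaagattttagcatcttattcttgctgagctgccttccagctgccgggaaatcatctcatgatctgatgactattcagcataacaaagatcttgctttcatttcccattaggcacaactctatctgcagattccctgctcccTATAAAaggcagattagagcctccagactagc
Ccr2, chr9:124101933-124102182, plus strand: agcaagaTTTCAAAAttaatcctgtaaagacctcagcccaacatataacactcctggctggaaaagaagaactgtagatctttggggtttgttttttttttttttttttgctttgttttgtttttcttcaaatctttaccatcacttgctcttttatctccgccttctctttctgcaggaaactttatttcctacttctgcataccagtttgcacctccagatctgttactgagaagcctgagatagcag
Ccl3, chr11:83649379-83649628, minus strand: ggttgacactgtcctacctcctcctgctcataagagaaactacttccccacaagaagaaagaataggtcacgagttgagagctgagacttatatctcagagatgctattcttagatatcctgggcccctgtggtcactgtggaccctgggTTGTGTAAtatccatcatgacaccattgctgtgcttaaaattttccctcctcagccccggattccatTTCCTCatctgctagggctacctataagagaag

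Each motif was searched on both strands. The TATA box TATAAA was present in the promoter of Ccl8, from 32 to 27 bases before the start, and in none of the other 4 promoters. It occurs in 12.4% of the 32851 promoter windows of this length. The C/EBP motif TTNNGNAA, which is bound by a family of factors that act in macrophages and hepatocytes, matched in Ccr2 (243 to 236 bases before the start) and in Ccl3 (100 to 93 bases), against 36.8% of all windows. The PU.1 core GAGGAA, bound by the factor that specifies myeloid cells, matched in Ccl8 (240 to 235 bases) and Ccl3 (33 to 28 bases), against 23.3% of windows. The AP-1 letters TGANTCA (6.75% of windows), the STAT letters TTCNNNGAA (7.02%) and the NF-kappaB motif (3.9%) were not in any of the 5 windows. These are matches of letters only, and no binding was measured.

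Total counts were 22154774 to 22652285 in male and 18741939 to 19195502 in female libraries. Levels are TMM-scaled CPM, the reads of a gene relative to the size of its library. Most of these genes rest on few reads, such as the 25 of Ccl2 in the 4 CT males on CTD. The floxed gene itself, Myc, averaged 6.42 CPM in CT and 11.2 CPM in KO males on CTD, with HFC means of 8.38 and 11.4 CPM, and in females 7.34 and 11.9 CPM on CTD, with HFC means of 6.52 and 10.03 CPM. Its levels were thus not lower in any KO group, and none of these differences was called by edgeR's quasi-likelihood test. Whole liver holds Myc RNA of all its cells, so these values do not check its loss from endothelial cells. Differences were called at a Benjamini-Hochberg adjusted p under 0.05 over all tested genes. In bulk tissue, fewer cells of a type and less RNA per cell cannot be told apart.

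On HFC the chemokines and Ccr2 were higher than on CTD in both genotypes of males. Of the 9 genes that passed the filter on low counts, 6 rose in CT males and 9 rose in KO males, and none fell. Among all 14078 genes tested in males, 10.6% were called higher and 9.40% lower in CT, and 15.5% higher and 13.6% lower in KO. Every HFC liver lay above every CTD liver for 7 of the 10 genes in CT males, as for 11.4% of all tested genes, and for 10 of 10 in KO males, as for 15.4%. The median log2 fold change of the 9 was 1.79 in CT males and 2.84 in KO males, where the median of all genes was -0.01 and -0.02. Scaling by library totals instead of TMM moved the share of calls that were higher, over all genes, from 53.1% to 91% in CT males, 53.2% to 91.6% in KO males, 42.7% to 92.1% in CT females and 45.8% to 89.8% in KO females, while the tested diet effects of these genes stayed above 0 under every scaling. The KO median is the same with Ccl8 set to its lower bound. Ccl7 was too low to be tested in males.

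Ccl2, Ccl7 and Ccl8 are the monocyte attractants of the set. Ccl2 (MCP-1), the main attractant of inflammatory monocytes, had 0.347, 0.199, 0.208 and 0.449 CPM in CT males on CTD, against 0.922, 1.15, 2.31 and 2.41 CPM on HFC. The KO males had 0, 0.299, 0.244 and 0.0491 CPM on CTD, against 4.50, 1.39, 2.15 and 1.88 CPM on HFC. Every HFC liver lay above every CTD liver in both genotypes, with KO animal 414 the highest. The mean of CT males was 5.65-fold higher on HFC (log2 fold change 2.46, SE 0.54, adjusted p 0.00451). That of KO males was 16.8-fold higher (4.04, SE 0.60, adjusted p 9.58e-05), against a CTD group that held 12 reads in all.

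In females Ccl2 had 1.19, 0.526 and 1.25 CPM in CT and 0.236, 1.28 and 0.679 CPM in KO livers on CTD. On HFC it had 5.80, 3.38 and 1.60 CPM in CT females and 6.39, 1.42 and 13.1 CPM in KO females. The diet groups did not overlap in either genotype, but animal 512 (CT) and animal 413 (KO) lay just above the highest CTD livers. Ccl2 rose in KO females (log2 fold change 3.23, SE 0.83, adjusted p 0.0383) and was not called in CT females (1.86, SE 0.81, adjusted p 0.228).

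Ccl7 (MCP-3) and Ccl8 (MCP-2) also attract monocytes, Ccl8 through several receptors. Ccl7 had between 0 and 17 reads in any male library. Its 4 KO males on HFC (0.633, 0.328, 0.248 and 0.489 CPM) lay above the KO males on CTD, which reached 0.141 CPM, whereas the CT groups overlapped because CTD animal 320 had 0.449 CPM. Without the filter on low counts, Ccl7 was called higher in KO males (log2 fold change 2.46, adjusted p 0.0365) and not in CT males (0.57, adjusted p 0.726). In KO females it rose from 0.236, 0.0555 and 0.170 CPM to 1.05, 0.285 and 0.942 CPM (log2 fold change 2.27, SE 0.65, adjusted p 0.048). The CT female diet groups overlapped, and the difference was not called (log2 fold change 1.16, SE 0.68, adjusted p 0.362).

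Ccl8 was nearly absent from livers on CTD. The CT males held 3 reads in all on CTD and 44 on HFC, a ratio of 12.5 with an exact counting interval of 4.02 to 63.1 (95%), and the rise was called (adjusted p 0.00177). The KO males held 0 reads in all 4 CTD livers and 46 on HFC, which is at least 12.5-fold higher when the CTD group is set to a floor of 3 reads over the group (adjusted p 0.00014). All 8 male HFC livers had between 0.204 and 0.670 CPM, above all male CTD livers. In females the sums were 31 against 2 reads in CT and 31 against 3 reads in KO, with 0 reads in HFC animals 512 and 413 and 28 of the 31 CT reads in animal 510, and neither difference was called.

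Ccl3 (MIP-1 alpha) and Ccl4 (MIP-1 beta), neighbours in the second cluster, were low on CTD and several-fold higher on HFC. Ccl3 had 0.0495, 0.0996, 0.208 and 0.314 CPM in CT males on CTD, against 0.377, 0.398, 1.20 and 0.830 CPM on HFC. The KO males had 0.188, 0.150, 0.488 and 0.0491 CPM on CTD, against 1.45, 0.533, 0.992 and 1.18 CPM on HFC. The diet groups were apart in both genotypes, by a narrow margin between CTD animal 304 and HFC animal 415 in KO. Ccl3 rose by log2 2.01 (SE 0.59, adjusted p 0.0241) in CT males and 2.22 (SE 0.55, adjusted p 0.00567) in KO males. The call in CT males was lost without CTD animal 301 (adjusted p 0.0728), CTD animal 305 (0.0733), HFC animal 418 (0.0994) or HFC animal 543 (0.0538).

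Ccl4 went from 0, 0.0498, 0.0520 and 0.135 CPM to 0.210, 0.309, 0.758 and 0.706 CPM in CT males, and from at most 0.147 CPM to between 0.533 and 0.856 CPM in KO males. No CTD liver reached the lowest HFC liver. The means were 8.38-fold higher in CT males (log2 fold change 2.92, SE 0.61, adjusted p 0.00301) and 9.65-fold higher in KO males (3.18, SE 0.56, adjusted p 0.000472). In KO females both genes rose, Ccl3 by log2 2.57 (SE 0.59, adjusted p 0.0188) and Ccl4 by log2 2.97 (SE 0.70, adjusted p 0.0197). In CT females neither passed in the main fit, at log2 1.85 (adjusted p 0.136) and 2.87 (adjusted p 0.0748), although the ranges of their diet groups were apart. There DESeq2 called Ccl4 (adjusted p 0.0226) and not Ccl3. With library totals edgeR called both (adjusted p 0.0483 for Ccl3 and 0.0271 for Ccl4).

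Ccl5 (RANTES), which T cells and NK cells make in quantity, was with Ccl6 and Ccl24 among the 3 most abundant ligands per kilobase in every group. It had 1.04, 1.59, 1.09 and 1.66 CPM in CT males on CTD, against 3.23, 4.55, 3.67 and 7.31 CPM on HFC. Among KO males it had 1.88, 0.598, 0.537 and 0.835 CPM on CTD, against 7.82, 4.55, 9.80 and 5.75 CPM on HFC. It rose 3.48-fold in CT males (log2 fold change 1.79, SE 0.36, adjusted p 0.00279) and 7.26-fold in KO males (2.84, SE 0.37, adjusted p 3.99e-05). Among females, animals 512 (3.42 CPM) and 413 (3.65 CPM) were well below the other 4 HFC livers, which had 9.89 to 18.1 CPM. Animal 512 still lay above all CT livers on CTD (2.45 to 2.89 CPM), and animal 413 lay within the KO range on CTD (2.18 to 4.16 CPM). Ccl5 was called in neither genotype of females in the main edgeR fit, and in both by DESeq2 (adjusted p 0.0223 in CT and 0.0148 in KO). In KO females edgeR also called it with library totals (adjusted p 0.0429) and without animal 413 (0.0169).

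Ccl6, a mouse chemokine of macrophages and granulocytes that acts on Ccr1, was the most abundant of the ligands. It had 10.7, 14.1, 22.4 and 20.6 CPM in CT males on CTD, against 17.6, 24.1, 33.0 and 36.2 CPM on HFC, and these groups overlapped. The KO values were 8.07, 14.5, 12.1 and 13.0 CPM on CTD, against 61.3, 26.6, 29.1 and 42.7 CPM on HFC, with no overlap. It rose in KO males (3.35-fold, log2 fold change 1.75, SE 0.33, adjusted p 0.00133) and did not pass in CT males (0.71, SE 0.32, adjusted p 0.136). In females it was higher by log2 1.36 in CT and 1.82 in KO livers, and neither was called by edgeR (adjusted p 0.214 and 0.0745). DESeq2 (adjusted p 0.0205) and edgeR with library totals (0.0294) called it in KO females.

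Ccl22, which dendritic cells and macrophages use to draw Ccr4-bearing T cells, was low throughout. In KO males it had 0.141, 0, 0 and 0.147 CPM on CTD, against 1.75, 0.779, 0.827 and 0.611 CPM on HFC, a rise of log2 3.68 (SE 0.83, adjusted p 0.00311) that rests on 6 CTD reads. In CT males 2 HFC livers (0.210 and 0.177 CPM) lay within the CTD range of 0 to 0.404 CPM, and the difference was not called (log2 fold change 1.49, adjusted p 0.184). Ccl22 also rose in KO females (2.25, SE 0.62, adjusted p 0.0398). In CT females the estimate was 2.47 (SE 0.72), not called in the main edgeR fit (adjusted p 0.0885). It was called by DESeq2 (adjusted p 0.043) and by edgeR with library totals (adjusted p 0.0306).

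Ccl24 (eotaxin-2), which attracts eosinophils through Ccr3 and is made by macrophages, had the smallest estimates of the 9 tested genes in males. It had 2.13, 3.39, 2.81 and 3.59 CPM in CT males on CTD, against 4.02, 3.75, 3.95 and 7.47 CPM on HFC. These ranges were apart by a small margin and the difference was not called (1.61-fold, log2 fold change 0.69, SE 0.26, adjusted p 0.0679). DESeq2 called it (adjusted p 0.0463). In KO males it rose from between 1.80 and 2.58 CPM on CTD to between 3.80 and 7.87 CPM on HFC (log2 fold change 1.47, SE 0.26, adjusted p 0.000479). In females Ccl24 had the smallest adjusted p of the 10 genes in both genotypes. It was called in KO (1.93, SE 0.39, adjusted p 0.00998) and just missed in CT (1.62, SE 0.39, adjusted p 0.0513). The ranges of the CT diet groups were apart, and DESeq2 called the CT difference (adjusted p 0.00293).

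The receptor Ccr2 had 1.19, 1.49, 1.40 and 2.16 CPM in CT males on CTD, against 4.78, 4.64, 5.15 and 5.11 CPM on HFC. In KO males it had 0.704, 1.45, 1.41 and 1.37 CPM on CTD, against 9.75, 4.63, 5.87 and 5.99 CPM on HFC. The HFC livers were all at least 4.63 CPM and the CTD livers at most 2.16 CPM, and the CT HFC group was tight while animal 414 stood above the other KO livers. Ccr2 had the smallest adjusted p of the 9 tested genes in both genotypes of males, with a 3.15-fold rise in CT (log2 fold change 1.65, SE 0.25, adjusted p 0.00035) and a 5.32-fold rise in KO (2.41, SE 0.25, adjusted p 3.38e-06).

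In females Ccr2 had 1.56, 1.34 and 2.72 CPM in CT and 1.42, 2.44 and 1.92 CPM in KO livers on CTD. On HFC it had 5.98, 8.52 and 2.35 CPM in CT and 11.5, 2.75 and 8.76 CPM in KO livers. The CT groups overlapped through animal 512, and animal 413 lay just above the KO livers on CTD. Neither difference was called by edgeR (log2 fold change 1.58, SE 0.56, adjusted p 0.154 in CT and 1.98, SE 0.56, adjusted p 0.0509 in KO). The KO difference was called without animal 413 (2.38, adjusted p 0.00507) and with library totals (adjusted p 0.0218). DESeq2 called Ccr2 in both genotypes (adjusted p 0.0421 in CT and 0.00254 in KO).

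Of the 10 genes in females, all of which were tested, 0 were called in CT and 6 (Ccl2, Ccl7, Ccl3, Ccl4, Ccl22 and Ccl24) rose in KO. Of all 13999 genes, 0.936% were called higher and 1.26% lower in CT females, and 3.94% higher and 4.65% lower in KO females. HFC livers lay above CTD livers without overlap for 7 of 10 genes in both genotypes, as for 14.3% of all tested genes in CT and 12.2% in KO females. In CT females 8 of the 10 had an unadjusted p under 0.05 by edgeR, as had 2841 of all 13999 genes. DESeq2 called 5 of the 10 there, and 919 of all genes in either direction where edgeR called 307. Without HFC animal 512, Ccl22 (adjusted p 0.0394) and Ccl24 (0.0424) were called in CT females. The medians were 1.79 in CT and 2.26 in KO females on the log2 scale, with SEs of single genes between 0.39 and 1.66. The count in KO females fell to 1 without CTD animals 307, 309 or 317 or HFC animal 412, to 3 without HFC animal 419, and reached 9 without HFC animal 413. Over all genes the 1202 calls in either direction moved alike. They became 565, 585, 630, 665 and 765 without animals 307, 309, 317, 412 and 419 in turn, and 2671 without animal 413. Each of the 6 calls was lost in at least 1 of these fits, with a highest adjusted p of 0.127 for Ccl2, 0.161 for Ccl7, 0.0779 for Ccl3, 0.0855 for Ccl4, 0.141 for Ccl22 and 0.0507 for Ccl24.

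**Figure D1:**
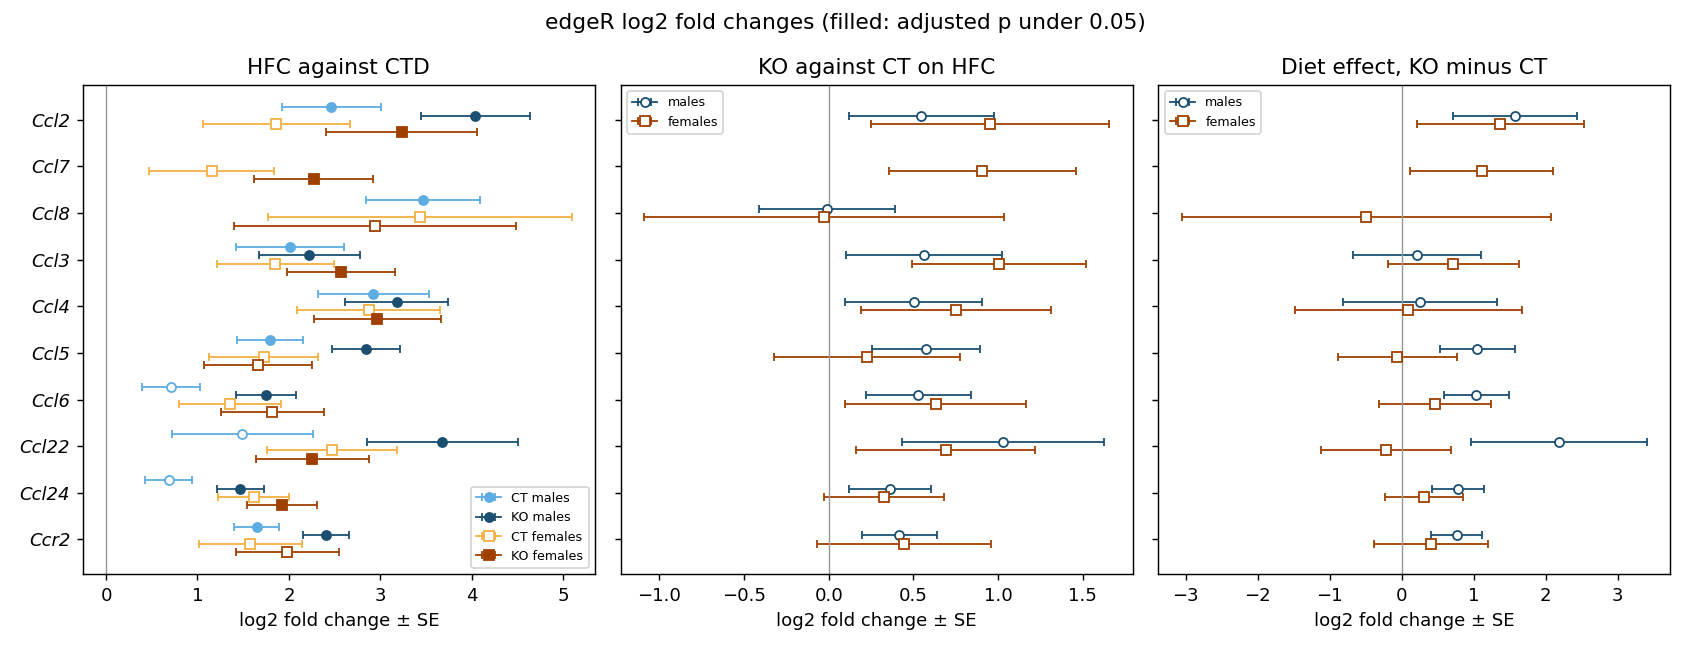
Log2 fold changes with SE (x axis) of each gene from edgeR for HFC against CTD (left), KO against CT on HFC (middle) and the difference of the diet effects, KO minus CT (right), with filled symbols for adjusted p under 0.05. Ccl7 was not tested in males, and Ccl8 is left out where KO males on CTD, with 0 reads, enter the comparison. All diet effects lie above 0, and no symbol of the middle and right panels is filled.

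The study asks whether endothelial c-Myc alters the response of the liver to the diet, which is read in the comparison of KO with CT. None of the 10 genes was called between KO and CT on either diet in either sex, and 0% of all genes were called in these 4 comparisons by edgeR. At an unadjusted p under 0.05 there were 653 of 14078 genes on HFC and 949 on CTD in males, and 311 and 446 of 13999 in females. DESeq2 called 3 and 11 genes in males and 0 and 1 in females, none of them among the 10. Of the 10, 1 (Ccl8 in males on CTD) had an unadjusted p under 0.05.

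On HFC the KO mean was above the CT mean for 9 of the 10 genes in males (all but Ccl8) and for 10 of 10 in females. Ccl8 was level in females, with 31 reads in each genotype and a fitted difference of -0.03, so 9 female fits were above 0. The ranges of KO and CT livers overlapped for all 10 in both sexes. Over all genes the median fitted difference was log2 0.004 in males and 0.014 in females. Among all tested genes the ranges were apart, in either direction, for 2.16% in males and 5.46% in females on HFC and for 3.99% and 9.17% on CTD. The fitted differences in males ranged from -0.01 (Ccl8) to 1.03 (Ccl22) on the log2 scale, with a smallest adjusted p of 0.958. Ccr2 differed by 0.42 (SE 0.22) in males and 0.44 (SE 0.51) in females, and Ccl2 by 0.55 (SE 0.43) and 0.95 (SE 0.70). On CTD the KO mean was above the CT mean for 2 of 10 genes in males (Ccl3 and Ccl4) and for 8 of 10 in females, with every range overlapping.

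The diet effect was fitted as larger in KO than in CT for 9 of 9 tested genes in males, by a median of log2 1.04, and 0 of them were called (smallest adjusted p 0.809, 0% of all genes called, 852 at an unadjusted p under 0.05, and 5 by DESeq2, none a chemokine of this set). Unadjusted p-values under 0.05 were obtained for 4, namely Ccl8, Ccl6 (1.04, SE 0.45), Ccl24 (0.78, SE 0.36) and Ccr2 (0.77, SE 0.35). In females the estimate was above 0 for 7 of 10 genes, with a smallest adjusted p of 0.992. The interaction uses the same 4 groups as the comparisons above, so these are not separate observations. The larger number of calls in KO than in CT males therefore does not show that the genotypes differ.

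The sexes were compared in a fit of both tables (14685 genes), as the diet effect in females minus that in males. None of the 10 genes was called in CT mice (0.00681% of all genes called) or in KO mice (0.157% called). The largest estimate in CT mice was that of Ccl22 (0.96, SE 1.21), and Ccl24 had the smallest adjusted p (0.90, SE 0.47, adjusted p 0.782). In KO mice Ccl5 had the smallest adjusted p, with an estimate of -1.21 (SE 0.70, adjusted p 0.606). The estimate of Ccl22 was larger (-1.43, SE 1.16, adjusted p 0.725). That of Ccl8 was the largest, also below 0, but it rests on KO males on CTD with 0 reads.

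Individual livers moved across the genes together. Animal 512 was the lowest CT female on HFC and animal 413 the lowest KO female on HFC for 10 of 10 genes. In males, animal 414 was the highest KO liver on HFC for 8 genes (not for Ccl5, and it was the lowest for Ccl24), animal 301 the lowest CT liver on CTD for 9 and animal 320 the highest CT liver on CTD for 8. After group means were removed, the median Pearson correlation of log2 CPM between pairs of the genes was 0.72 over 12 female livers (45 pairs, 0.47 to 0.95) and 0.35 over 16 male livers (36 pairs, -0.29 to 0.79). These points share library, scaling and cell makeup, and the correlations are given as a description.

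**Figure D2:**
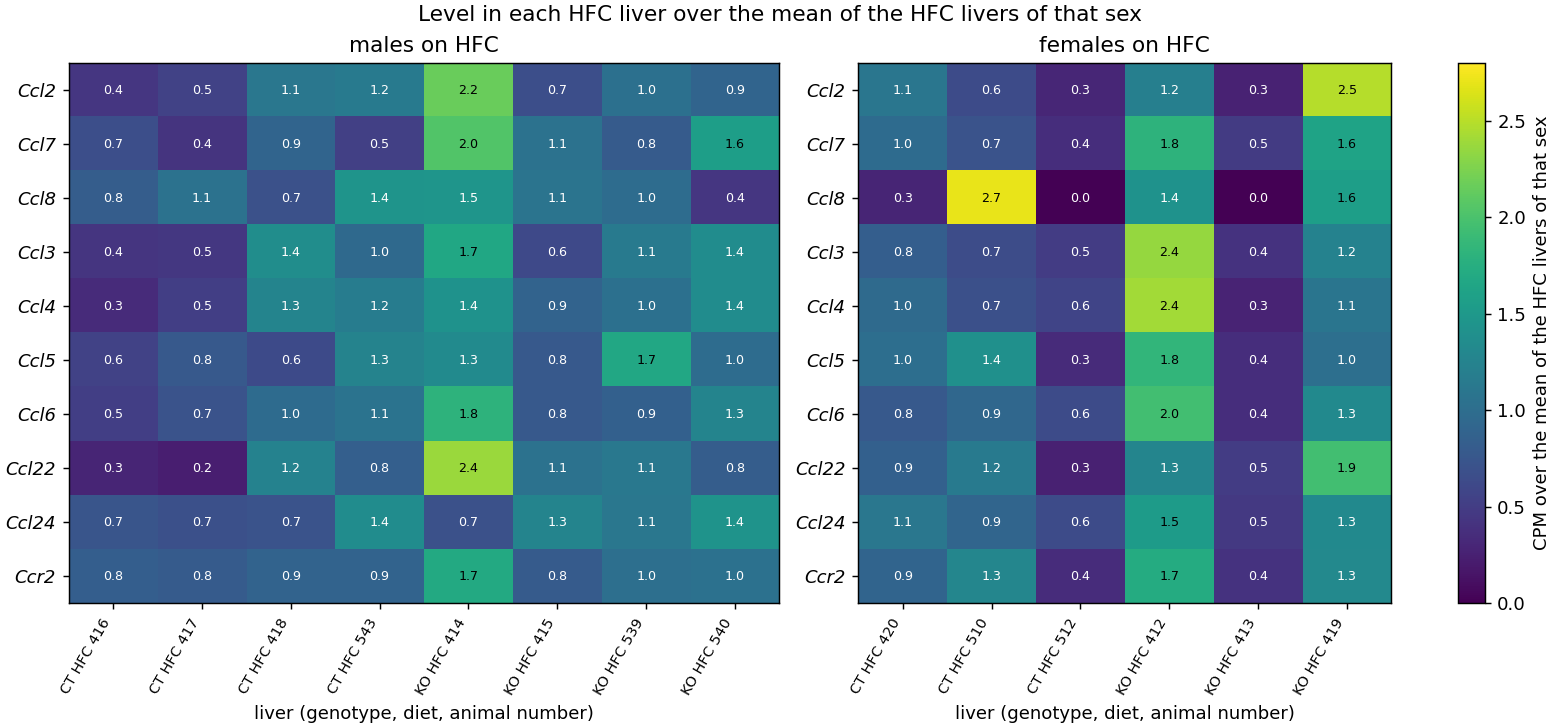
CPM of each gene (rows) in each HFC liver (columns, by genotype and animal number) divided by its mean over the HFC livers of that sex (colour and number). The columns of female animals 512 and 413 are below 1 in every row, and that of male animal 414 is above 1 in all rows but Ccl24.

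Levels were compared between ligands per kilobase of exon. Ccl6 made up the largest share of the summed ligand level in every group, 66.9% ± 6.21 (SD, n = 4) in CTD-fed and 54.1% ± 3.56 in HFC-fed CT males, and 65.8% ± 10.8 and 53.4% ± 7.79 in KO males. Ccl5 held 10.4% ± 2.69 of it in CTD-fed and 17.2% ± 3.41 in HFC-fed CT males, and Ccl2 2.01% ± 1.01 and 5.07% ± 1.09. Ccl24 held 16.8% ± 3.15 and 13.2% ± 2.92. In females the share of Ccl6 was 48.7% ± 10.8 (n = 3) in CT livers on CTD and 44.6% ± 8.79 on HFC, and that of Ccl5 was 23.2% ± 5.47 and 22.4% ± 7.58.

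Many markers of myeloid cells were called higher on HFC in males. All 12 pan-macrophage markers, among them Adgre1, Cd68 and Lyz2, were called higher on HFC in CT males and in KO males, and 0 of 12 in either genotype of females. Their summed level was 351 to 531 CPM in CTD-fed and 707 to 1171 CPM in HFC-fed CT males, and 287 to 368 CPM and 900.0 to 1207 CPM in KO males. In females it was 302 to 889 CPM and 669 to 1047 CPM in CT, and 323 to 776 CPM and 538 to 1726 CPM in KO, so the female diet groups overlapped. Of 14 markers of monocytes and recruited macrophages, 10 rose in CT males and 13 rose in KO males, where 1 fell. This list includes Fn1, which hepatocytes also make, and Spp1, which is also in the list of cholangiocyte markers. The full list summed to 1980 to 2735 CPM on CTD and 1862 to 2382 CPM on HFC in CT males. In KO males it summed to 2048 to 2517 CPM and 1674 to 2242 CPM. The full sums thus overlapped in both genotypes, with lower means on HFC. A sum without Fn1, which keeps Spp1, was added to the lists as first set. Without Fn1 the summed level was 79.6 to 150 CPM on CTD and 174 to 240 CPM on HFC in CT males. In KO males it was 83.8 to 113 CPM and 197 to 454 CPM. In females 2 of the 14 rose in CT and 3 in KO. Its Ly6c2, the marker of inflammatory monocytes, averaged 1.30 and 3.09 CPM in CT males.

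Kupffer cell markers were called higher for 6 of 10 in CT and 9 of 10 in KO males, with summed levels of 383 to 545 CPM and 634 to 907 CPM in CT males. Of 15 tested T and NK cell markers, 7 rose in CT males and 11 in KO males (sums of 8.77 to 11.7 CPM and 15.1 to 22.7 CPM in CT). Neutrophil markers were called higher for 6 of 7 and 5 of 7, and dendritic cell markers for 4 of 10 and 7 of 10. In females 0 of 10 Kupffer cell, 0 of 15 T and NK cell and 0 of 9 dendritic cell markers were called in either genotype. Of 8 neutrophil markers 0 rose in CT and 1 in KO. In KO females, where 6 of the chemokine genes were called, the median log2 fold changes of these marker lists were also above 0. They were 0.61 for Kupffer cell, 0.999 for T and NK cell, 0.66 for dendritic cell and 2.18 for neutrophil markers. Hepatocyte markers, which mark the bulk of this tissue, summed to 78597 to 112350 CPM in CT males on CTD, against 73473 to 92359 CPM on HFC. In KO males these sums were apart, at 96044 to 116718 CPM on CTD and 75579 to 87641 CPM on HFC. They were apart in both genotypes of females too. In CT females they were 161724 to 165192 CPM on CTD and 92711 to 140208 CPM on HFC, and in KO females 148736 to 173914 CPM and 98558 to 111799 CPM. Of 7 tested hepatocyte markers 2 fell in CT males, 2 in KO males, 0 in CT females and 3 in KO females. Epx, the eosinophil peroxidase, had at most 1 read in any library, so this eosinophil marker was at or near 0. Siglecf, a surface marker of eosinophils, averaged 0.170 CPM in CT males on CTD and 0.384 CPM on HFC. It was not called in CT males (log2 fold change 1.15, adjusted p 0.159) or CT females (1.43, adjusted p 0.263), and it rose in KO males (2.14, SE 0.54, adjusted p 0.00636) and KO females (2.63, SE 0.64, adjusted p 0.0231). The part of these cell types in the chemokine levels was not tested.

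Per 100 CPM of summed pan-macrophage markers, Ccr2 had 0.354 ± 0.0498 CPM (SD, n = 4) in CTD-fed and 0.586 ± 0.104 in HFC-fed CT males, and the ranges were apart (0.292 to 0.406 and 0.436 to 0.676). In KO males it had 0.376 ± 0.111 and 0.596 ± 0.142. Ccl2 went from 0.0693 ± 0.0266 to 0.191 ± 0.0619 in CT males and from 0.0451 ± 0.0443 to 0.222 ± 0.102 in KO males. Ccl6 had 3.80 ± 0.667 and 3.18 ± 0.567 in CT males and 3.62 ± 0.715 and 3.62 ± 1.12 in KO males, with overlapping ranges. Ccl24 had 0.683 ± 0.126 and 0.545 ± 0.0759 in CT males, also overlapping. On this scale the male ranges of Ccr2 and Ccl2 were thus apart while those of Ccl6 and Ccl24 overlapped. Females showed another order. In CT females Ccl6 was apart (2.12 to 2.59 on CTD, 3.13 to 3.65 on HFC), while Ccr2 (0.306 to 0.517 and 0.351 to 0.814) and Ccl2 (0.140 to 0.393 and 0.240 to 0.603) overlapped. In KO females Ccr2 (0.248 to 0.439 and 0.511 to 0.696), Ccl2 (0.0732 to 0.175 and 0.264 to 1.04) and Ccl24 (0.296 to 0.512 and 0.670 to 0.815) were apart, and Ccl6 overlapped. The ratios were not tested.

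**Figure D3:**
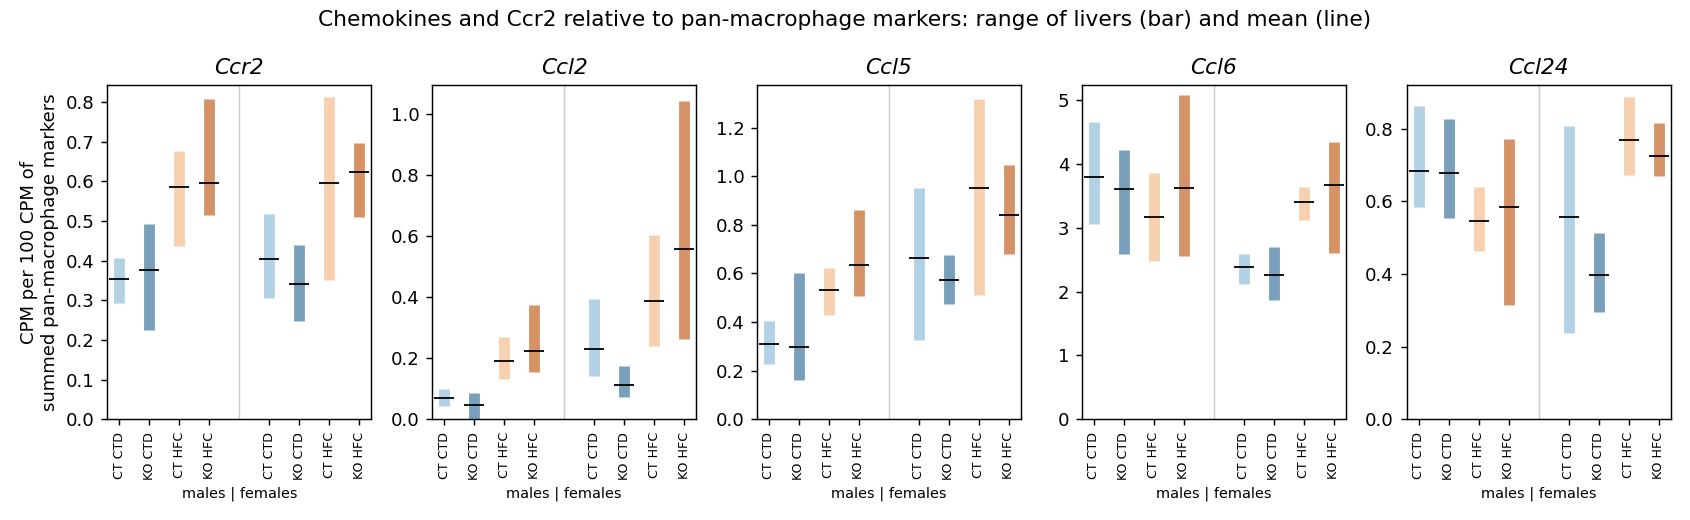
CPM of 5 genes per 100 CPM of the summed 12 pan-macrophage markers (y axis, from 0) by group, males at left and females at right of each panel, with the range of livers (bar) and the mean (line). Ccr2 and Ccl2 of male HFC livers lie above those of CTD livers of the same genotype, while the bars of Ccl6 and Ccl24 overlap in males. In CT females the bars of Ccl6 are apart and those of Ccr2 and Ccl2 overlap.

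The rest of the chemokine system was described by lists. Of the other CC chemokines, 6 were tested. Ccl28, an epithelial chemokine, fell in CT males (log2 fold change -1.35, SE 0.35, adjusted p 0.0117) and in KO males (-1.36, SE 0.35, adjusted p 0.00737). Ccl9, which lies in the cluster of Ccl6, rose in KO males (1.002, SE 0.25, adjusted p 0.00902) and had 0.54 (adjusted p 0.152) in CT males. Ccl27a was at 0.13 (adjusted p 0.6) in CT males. In females 0 of the 6 were called.

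Of 13 tested CXC, CX3C and XC chemokines, 4 rose in CT males and 8 rose and 1 fell in KO males. Cxcl9 and Cxcl10, ligands of Cxcr3 that interferon induces, rose in CT males by log2 1.73 (SE 0.26, adjusted p 0.000562) and 1.96 (SE 0.31, adjusted p 0.000572). The neutrophil attractant Cxcl2 rose by 2.10 in CT males (adjusted p 0.0147), 3.07 in KO males (adjusted p 0.00047), 3.58 in CT females (adjusted p 0.0475) and 3.28 in KO females (adjusted p 0.0215). Cxcl12, made by stromal cells, fell in KO females (-0.87, SE 0.21, adjusted p 0.024).

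Of 16 other chemokine receptors tested, 5 rose in CT males and 9 in KO males. Ccr7, which guides mature dendritic cells to lymph nodes, rose by 1.98 (SE 0.35, adjusted p 0.000985) in CT males and 2.68 (SE 0.36, adjusted p 3.39e-05) in KO males. Cxcr2, the receptor of Cxcl2, was at 0.42 (adjusted p 0.202) in CT males and did not pass.

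The list of NF-kappaB and cytokine genes holds inducers of CC chemokines, and also inhibitors and targets of NF-kappaB. Of its 22 tested genes, 13 rose in CT males, 15 in KO males, 0 in CT females and 5 in KO females. None fell. Tnf rose by log2 2.72 in CT males (SE 0.47, adjusted p 0.000871), 3.59 in KO males (SE 0.46, adjusted p 2.35e-05) and 4.24 in KO females (SE 1.02, adjusted p 0.0238). Tlr2, a sensor of bacterial lipoproteins, rose by 1.78 (SE 0.24, adjusted p 0.00019) in CT males and 2.72 (SE 0.25, adjusted p 1.28e-06) in KO males. Il1r1 was at -0.63 (adjusted p 0.323) in CT males. Of 16 tested genes that carry the signal of Ccr2 inside the cell, 9 rose in CT males and 12 in KO males. Rac2, a GTPase of blood cells, rose by 1.35 (SE 0.15, adjusted p 4.23e-05) in CT males and 1.90 (SE 0.15, adjusted p 4.67e-07) in KO males, and Stat3 did not pass (-0.15, adjusted p 0.675, and -0.17, adjusted p 0.603).

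Genes most alike each of them were taken by Pearson correlation of log2 CPM over the 16 male livers, among about 12365 genes of at least 1 CPM, and the diet difference enters every value. Those of Ccr2 were Lpcat2 (0.98, and 0.90 over the 12 female livers), Ttc39a (0.98 and 0.80) and the leukocyte antigen gene Cd52 (0.98 and 0.97). Those of Ccl2 were Plek (0.98 and 0.88), a platelet and leukocyte protein, Cd300c2 (0.97 and 0.82) and Csf2rb2 (0.97 and 0.87). Ccl5 was most like Arrb2 (0.97 and 0.83), Lst1 (0.97 and 0.83) and Cd74 (0.96 and 0.97), the invariant chain of antigen presentation. Ccl6 was most like C3ar1, the receptor of the complement fragment C3a (0.97 and 0.81), Tlr13 (0.96 and 0.94) and Igsf6 (0.95 and 0.96), and Ccl24 was most like Cfp, which encodes properdin (0.94 and 0.76). The gene most alike Ccl8 in males, B4galt5, had 0.96 there and 0.47 in females.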

How the data were processed

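The labels name a BGI DNBSEQ instrument for the liver RNA of 28 mice. Read counts per gene were deposited by the authors in separate male and female tables, with 1 column an animal, and were used here, while the deposited CPM tables were not. The submitters' processing notes name FastQC, edgeR and GRCm38 (mm10). No source used here gives the aligner, counter, annotation or strand setting. Counts were scaled by TMM, filtered with filterByExpr (14078 genes kept in males, 13999 in females, 14685 jointly) and fitted per sex with a mean per group by edgeR 4.0.16 (robust quasi-likelihood, R 4.3.3). Adjusted p-values are Benjamini-Hochberg values over every gene tested in a contrast. SE is the log2 fold change over the square root of F, an approximation. Biological coefficients of variation were 0.161 (males) and 0.199 (females). Counting intervals cover counting error only, since reads carry no molecular identifiers. All 10 genes are named. From each pathway list up to 5 called genes by adjusted p and up to 2 uncalled genes by level could be named, and from each marker list up to 4 by level; marker genes outside this rule (Epx and Cd68) and Myc were chosen after their values were seen. The 10 genes and the lists were chosen with earlier results of these data known. On simulated counts for HFC against CTD in CT males (13940 genes), 78% of genes changed by log2 1 and 100% of those changed by 2 were recovered. In CT females (13765 genes) these shares were 68% and 78%. The changed genes were drawn only from genes above a minimum mean level. Ccl8, Ccl4 and Ccl22 in males and Ccl7 and Ccl8 in females lie below it, so the shares do not cover them. Alternatives were other scalings (RLE, library totals), no filter, DESeq2 1.42.0 and leaving out each animal. Not every gene of the lists is reported here.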

Additional observations from a re-analysis of the deposited data

Results flagged for a closer look

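Of 39 sets of values, each of 1 gene in 1 group of 4 male livers, 5 held a liver far from the other 3. Dixon's ratio at its 95% critical value was used. Chance gives about 1 in 20 for values with a normal distribution, a rate that does not hold for groups of a few reads. The sets also reuse the same 16 male livers, so they are not separate trials. The flagged values were Ccl7 in CT male 320 on CTD (0.449 CPM, next 0.0498), Ccl8 in CT male 301 on CTD (0 CPM, against a lowest other value of 0.0449, that is 0 reads against 1), Ccl4 in KO male 311 on CTD (0.147 CPM, next 0.0498, that is 3 reads against 1), Ccl24 in CT male 543 on HFC (7.47 CPM, next 4.02) and Ccr2 in KO male 298 on CTD (0.704 CPM, next 1.37). The female groups of 3 were not examined in this way.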

How the results depend on the processing

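No paired analysis was possible because every animal has its own number and no number recurs across groups. Of the values of the 10 genes and their counts, all kept their direction with RLE scaling, DESeq2 and no filter; counts changed by over 1.5 times in females only. The number called in CT females on HFC was 0, but 4 with library totals, 5 with DESeq2 and 0 to 2 when 1 animal was left out. In KO females it was 6, but 8 with DESeq2, 9 with library totals, 4 with no filter and 1 to 9 when 1 animal was left out. The calls over all genes moved as well. In CT females these were 307, but 1832 with library totals, 919 with DESeq2 and 72 to 417 when 1 animal was left out. In KO females they were 1202, but 1884 with DESeq2, 3738 with library totals, 1084 with no filter and 565 to 2671 when 1 animal was left out. With library totals the median of all genes on HFC was log2 0.218 in CT and 0.26 in KO males and 0.295 and 0.322 in females. Library totals turned the uncalled KO difference of Ccl8 on HFC to 0.0439 in males and 0.00303 in females. DESeq2 gave no adjusted p for Ccl7 and Ccl8 in KO females on HFC. Without the filter, Ccl2 (adjusted p 0.0843) and Ccl7 (0.0545) were not called in KO females. For KO against CT on CTD in males, leaving out 1 animal moved the log2 fold change across 0 for Ccl3 (-0.38 to 0.86), Ccl4 (-0.30 to 1.0003). On HFC in males it did so for Ccl8 (-0.26 to 0.23). The difference of diet effects in males crossed 0 for Ccl3 (-0.30 to 0.94), Ccl4 (-0.50 to 0.80). In females on CTD the KO difference crossed 0 for Ccl7 (-0.63 to 0.32), Ccl8 (-0.38 to 0.98), Ccl3 (-0.0742 to 0.63), Ccl6 (-0.0738 to 0.69), Ccl24 (-0.22 to 0.19), Ccr2 (-0.17 to 0.41). On HFC in females it crossed 0 for Ccl8 (-0.58 to 2.59), Ccl4 (-0.13 to 1.22), Ccl5 (-0.40 to 0.67). The difference of diet effects in females crossed 0 for Ccl8 (-1.04 to 2.13), Ccl4 (-0.79 to 0.57), Ccl5 (-0.69 to 0.38), Ccl6 (-0.0621 to 0.90), Ccl22 (-0.69 to 0.22), Ccr2 (-0.00674 to 0.84). None of these was called, and the causes were not tested. Few reads for genes that averaged under 1 CPM in every group, such as Ccl7 and Ccl8, and 3 females a group limit the precision.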
